A study of Mus musculus with 6 samples.

Results

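The imprinted growth genes H19, Igf2, Igf2r, Dlk1, Meg3, Peg3, Mest, Cdkn1c, Grb10 and Plagl1, called members below, were followed across cultures of mouse mesoderm progenitor cells. They were taken by gene symbol from the deposited count table, all 10 were found, and all 10 were among the 13755 genes analysed of 19342 listed names. Total RNA was sequenced from primary cells isolated from mouse embryos, to see how added growth factors affect their specification. There were 6 libraries, each the only one of its condition: untreated cells taken at 0 h and at 96 h, cells given BMP4 alone and taken after 5 h and after 11 h, cells given BMP4 plus FGF8 and taken after 5 h, and cells given BMP4 plus FGF4 and taken after 11 h. Growth factors, labelled rhBMP4, rhFGF8 and rhFGF4, were added after 96 h, so the treated cultures were 101 h or 107 h old and had no untreated library of the same age. All samples are labelled C57BL/6, and the cells were grown in serum on mouse embryonic fibroblasts that had been treated with mitomycin C, a drug that blocks division.

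Imprinted genes are transcribed from the allele of only 1 parent, because DNA methylation laid down in the egg or sperm marks control regions that keep this choice in the embryo. Many act on growth: paternally expressed genes such as Igf2, Dlk1, Peg3, Mest and Plagl1 are linked to growth or to fat and muscle development, and maternally expressed genes such as Igf2r, Cdkn1c and Grb10 restrain growth or growth factor signalling. They often lie in clusters in which a long noncoding RNA, such as H19, Meg3 or Airn, is made from the other parental allele than its protein-coding neighbours. The counts do not separate alleles, so every value below is the sum over both parental copies.

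Total counts ran from 179196459 to 272743104 per library, and 3 counts correspond to between 0.0116 and 0.0187 CPM, the unit of level used here, which is edgeR's scaled count after TMM, an adjustment for RNA composition. Counting alone fixed each member's level within 0.430% to 1.99%, as the half-width of the exact 95% interval, but with 1 library per condition no value has a replicate check and no p-value is given. The 4 growth factor columns were longer than the column of names and had to be matched to it by their order, a step that favours values between those of the 0 h and 96 h libraries. The 40 placements of members all passed the margin set for it, and 39 landed on the same row when the member's own value was not used. The exception was Grb10 in the BMP4 11 h library. A direct match of the 2 columns of 5 h did not pair the same rows for H19, so its values in both 5 h libraries are less well supported (10 and 4 of 20 neighbouring rows had the same offset with BMP4 alone and with FGF8). With a margin of 10 units in place of 5, H19 and Grb10 were not kept. The libraries also differed in cell type markers. Red blood cell markers (9 of 13 analysed) summed to 23.4 CPM at 0 h, 30.4 with BMP4 at 5 h and 163 with FGF8, against 5449 at 96 h, 5131 with BMP4 at 11 h and 3351 with FGF4. Among them Hba-a1 and Hba-a2 had almost the same level in every library (2214 CPM each at 96 h), so these sums may count the same reads under both. Endothelial markers (13 of 13) ran from 19.1 to 20.3 CPM in the 0 h and 5 h libraries and from 76.2 to 200 CPM in the other 3, and lateral plate markers (11 of 12) from 75.3 to 86.5 and from 156 to 213 CPM. Feeder fibroblast markers (13 of 15) summed to 730 CPM at 0 h, 796 with BMP4 at 5 h, 737 with FGF8, 1248 at 96 h, 1017 with BMP4 at 11 h and 2011 with FGF4. Fibronectin (Fn1) made up much of that sum, at 549 CPM at 0 h and 319 at 96 h. Without it, a choice made after seeing the data, the sums were 181, 278, 246, 929, 565 and 1408 CPM in that order of libraries. Tailbud and presomitic markers (15 of 15), which define the labelled progenitors, went the other way: 601, 556 and 555 CPM at 0 h and in the BMP4 and FGF8 5 h libraries, 290 with BMP4 at 11 h, 87.9 with FGF4 and 55.0 at 96 h. No analysed marker of these lists was at 0 counts in any library. The sums of red blood cell, endothelial, lateral plate and tailbud markers in the 5 h libraries were thus nearer to those at 0 h than to those at 96 h, the age after which the labels place the addition of growth factors. Genes of the feeder fibroblast list did differ from 0 h: with BMP4 at 5 h, 5 of 13 were called at least 2-fold higher, against 0.334% of all genes, among them Postn, chosen after its values were seen, at 2.73 and 21.1 CPM. Feeders and cultured cells are both from mouse, so these counts do not show which of them made the RNA. In bulk RNA, fewer cells of a type and less RNA per cell cannot be told apart, and the part of these markers in the members' differences was not tested.

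The members were abundant, and they split into genes that varied widely between libraries and genes that hardly varied. Together they took 0.287% of all counts at 0 h, 0.361% at 96 h, 0.282% with BMP4 at 5 h, 0.323% with BMP4 at 11 h, 0.284% with FGF8 and 0.412% with FGF4. The ratio of the highest to the lowest library was 2.78 for Dlk1, 2.59 for Meg3 and 2.13 for Peg3, then 1.66 for Igf2r, 1.52 for Mest and 1.5 for Igf2. It was 1.28 for Plagl1, 1.19 for H19, 1.17 for Cdkn1c and 1.11 for Grb10. Among the 2611 genes with a mean of at least 50 CPM the median of this ratio was 1.19, and 2.76% of them reached 2-fold. In 7 of 10 members, all but H19, Cdkn1c and Grb10, the highest library was BMP4 with FGF4 at 11 h, against 23.2% of all genes. The count was 8 with DESeq2 size factors and 9, against 31.7% of all genes, with library totals. Per kilobase of annotated exon, the mean level over the 6 libraries was 307 CPM for H19, 131 for Mest, 107 for Igf2, 63.4 for Grb10, 32.0 for Cdkn1c, 22.8 for Peg3, 19.3 for Igf2r, 19.04 for Dlk1, 17.2 for Plagl1 and 9.26 for Meg3.

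**Figure D1:**
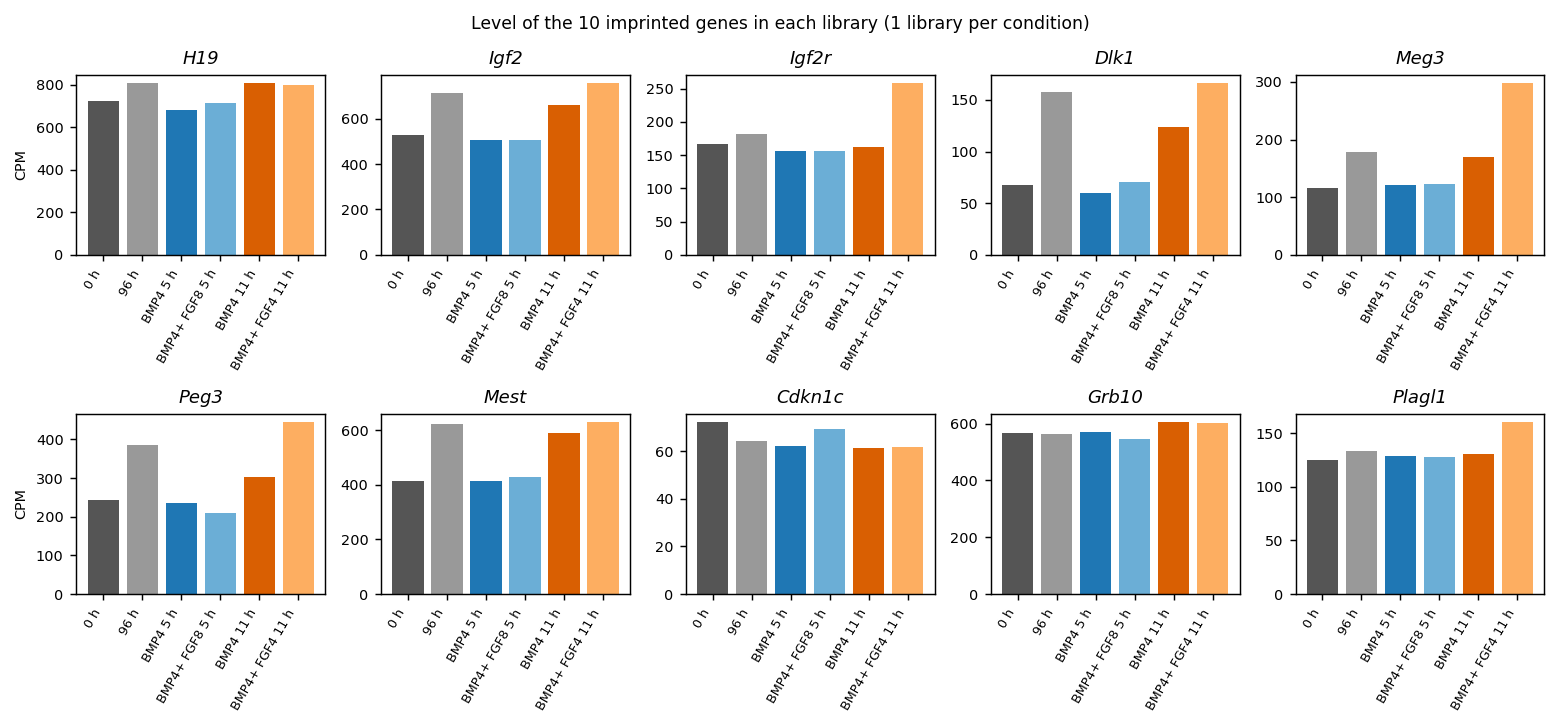
Level of each of the 10 imprinted genes in CPM (vertical axis, from 0, own scale per gene) in the 6 libraries, with 1 bar per library and no replicates. Dlk1, Meg3 and Peg3 have the widest ranges, at 2.78, 2.59 and 2.13-fold from lowest to highest, and the bars of Grb10, Cdkn1c and H19 are nearly level.

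Igf2, a secreted growth factor of the embryo, and H19, the noncoding RNA of the same cluster, were the pair with the highest counts. Igf2 lies on the minus strand of chromosome 7 from 142650766 to 142666816 (GRCm38), upstream of H19 at 142575529 to 142578143, and in the mouse the paternal copy of Igf2 and the maternal copy of H19 are the active ones. Igf2 was at 527 CPM at 0 h, 714 at 96 h, 505 with BMP4 at 5 h, 659 with BMP4 at 11 h, 508 with FGF8 and 757 CPM with FGF4. The 3 libraries at 0 h and 5 h were below the other 3, and the counting intervals of the 2 libraries at 5 h overlapped. The share of all genes that divide the libraries in this way was not counted, here or for the members below. H19 was at 725 CPM at 0 h, 807 at 96 h, 680 with BMP4 at 5 h, 805 with BMP4 at 11 h, 715 with FGF8 and 797 CPM with FGF4. H19 showed the same division of libraries with a smaller spread, with the limit on its 5 h values given above, and its 96 h and BMP4 11 h values were within counting error of each other. The ratio of Igf2 to H19 counts within a library, which does not depend on library scaling, was 0.727 at 0 h, 0.885 at 96 h, 0.742 with BMP4 at 5 h, 0.818 with BMP4 at 11 h, 0.710 with FGF8 and 0.95 with FGF4. Igf2 exons share 3596 bases with the same-strand gene model Gm49394, which the table does not list, and 98 bases with the antisense gene Igf2os, so the Igf2 count may hold or lack reads of these loci. Igf2os itself was at 16.5 CPM at 0 h and at 27.7 CPM in the 96 h library.

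H19 also carries the hairpin of miR-675, a microRNA cut from an H19 exon, whose 84 annotated bases all lie in that exon. The mature sequences from RefSeq (GRCm38.p6) are shown because this hairpin is the processed product of the most abundant member, with the seed, bases 2 to 8, in capitals.
mmu-miR-675-5p: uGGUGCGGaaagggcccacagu
mmu-miR-675-3p: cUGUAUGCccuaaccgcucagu
The 2 arms have different seeds. The table counts the hairpin as a gene of its own (Mir675), at 13466 counts at 0 h, 17838 at 96 h, 12807 with BMP4 at 5 h, 11705 with BMP4 at 11 h, 13461 with FGF8 and 14364 with FGF4. These were between 8.55% and 9.07% of the H19 count in all 6 libraries. Total RNA libraries of this kind do not select small RNA, so these counts do not measure the mature microRNAs.

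Igf2r, the receptor that takes IGF2 to the lysosome for breakdown and so lowers its supply, was nearly level in 5 libraries and higher in the library with FGF4. The gene lies on the minus strand of chromosome 17 from 12682406 to 12769664 and is expressed mainly from the maternal allele. Its level was 167 CPM at 0 h, 181 at 96 h, 156 with BMP4 at 5 h, 162 with BMP4 at 11 h, 156 with FGF8 and 258 CPM with FGF4. The ratio of Igf2 to Igf2r counts was therefore lowest with FGF4, at 2.93, against 3.16 at 0 h, 3.23 with BMP4 at 5 h, 3.25 with FGF8, 3.93 at 96 h and 4.07 with BMP4 at 11 h. Airn, the noncoding RNA that runs antisense through Igf2r and silences it on the paternal allele, shares no exon base with Igf2r. Whether reads in introns were counted is not given, so the counts of Airn and Igf2r may still share reads. Airn was at 43.1 CPM at 0 h, 25.3 at 96 h, 45.1 with BMP4 at 5 h, 51.3 with BMP4 at 11 h, 45.6 with FGF8 and 58.8 CPM with FGF4. Airn was thus lowest at 96 h, where Igf2r was second highest, while both were highest with FGF4.

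**Figure D2:**
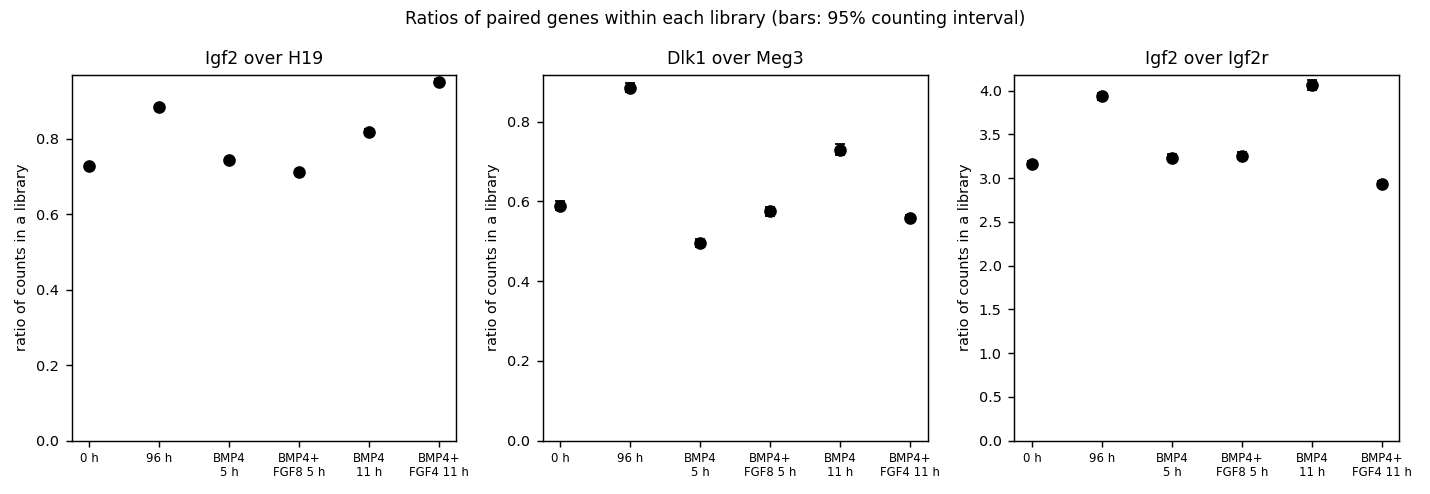
Ratio of counts of paired imprinted genes within each library: Igf2 over H19, Dlk1 over Meg3, and Igf2 over Igf2r (vertical axes, from 0, no unit), with bars for the 95% counting interval, often smaller than the point. Igf2 over H19 and Dlk1 over Meg3 are higher at 96 h (0.885 each) and with BMP4 at 11 h than at 0 h, and Igf2 over Igf2r is lowest with FGF4, at 2.93.

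The signalling inhibitor Grb10, the kinase inhibitor Cdkn1c and the transcription factor Plagl1 had ranges of 1.11, 1.17 and 1.28-fold over the 6 libraries. Grb10, an adaptor that binds activated insulin and IGF1 receptors and inhibits their signalling (chromosome 11, minus strand, 11930508 to 12038683), was at 566 CPM at 0 h, 563 at 96 h, 572 with BMP4 at 5 h, 605 with BMP4 at 11 h, 547 with FGF8 and 602 CPM with FGF4. The values at 96 h, 0 h and BMP4 5 h were within counting error of their neighbours in the order, as were those of the 2 libraries at 11 h. Cdkn1c, which encodes the cyclin-dependent kinase inhibitor p57 (chromosome 7, minus strand, 143458339 to 143461050), was at 72.2 CPM at 0 h, 64.3 at 96 h, 62.1 with BMP4 at 5 h, 61.6 with BMP4 at 11 h, 69.6 with FGF8 and 61.9 CPM with FGF4. It was the only member that was highest at 0 h, and its values with BMP4 at 5 h, BMP4 at 11 h and FGF4 were within counting error of their neighbours. Cdkn1c shares 625 exon bases with the opposite-strand gene Gm44732, and how the authors' counting treated strand is not given in the sources used here. Plagl1, a zinc finger factor that acts on other imprinted genes (chromosome 10, plus strand, 13060504 to 13131694), was at 125 CPM at 0 h, 133 at 96 h, 129 with BMP4 at 5 h, 130 with BMP4 at 11 h, 128 with FGF8 and 160 CPM with FGF4. The first 5 of these values were each within counting error of the next in order, and the library with FGF4 stood above them.

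Dlk1 and Meg3, the members with the widest ranges, are the protein-coding and the noncoding gene at one end of the Dlk1-Dio3 cluster on chromosome 12. Dlk1 encodes a transmembrane protein related to Notch ligands that holds back fat cell differentiation (plus strand, 109452823 to 109463336, active on the paternal copy), and Meg3 is a nuclear noncoding RNA of the maternal copy (plus strand, 109541001 to 109571726). Dlk1 was at 67.9 CPM at 0 h, 158 at 96 h, 59.9 with BMP4 at 5 h, 124 with BMP4 at 11 h, 70.5 with FGF8 and 166 CPM with FGF4. Its 3 libraries at 0 h and 5 h lay far below the other 3, with no overlap, a division whose share over all genes was not counted. Meg3 was at 115 CPM at 0 h, 178 at 96 h, 121 with BMP4 at 5 h, 170 with BMP4 at 11 h, 123 with FGF8 and 298 CPM with FGF4. Meg3 divided the libraries in the same way, and its level with FGF4 stood apart above all others. The 2 genes did not vary in proportion: the ratio of Dlk1 to Meg3 counts was 0.589 at 0 h, 0.885 at 96 h, 0.495 with BMP4 at 5 h, 0.729 with BMP4 at 11 h, 0.575 with FGF8 and 0.558 with FGF4. Meg3 exons share 1228 bases with the opposite-strand gene Gm26906 and hold the hairpins Mir770 and Mir1906-1, so its count may hold or lack reads of these loci. Mir1906-1 had 555347 counts at 0 h and 740930 at 96 h, against 23996 and 46057 for Meg3. The Meg3 count therefore cannot hold all reads counted for that hairpin, and its level may be understated.

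Peg3 and Mest, both active on the paternal copy, varied along the same division of libraries. Peg3 encodes a large zinc finger protein (chromosome 7, minus strand, 6703892 to 6730431), and was at 245 CPM at 0 h, 387 at 96 h, 235 with BMP4 at 5 h, 304 with BMP4 at 11 h, 209 with FGF8 and 444 CPM with FGF4. Its lowest library was the one with FGF8. Mest encodes a protein of the alpha/beta hydrolase fold that is common in embryonic mesoderm (chromosome 6, plus strand, 30723547 to 30748465), and was at 415 CPM at 0 h, 625 at 96 h, 414 with BMP4 at 5 h, 590 with BMP4 at 11 h, 429 with FGF8 and 629 CPM with FGF4. The 0 h and BMP4 5 h values of Mest were within counting error of each other, as were those at 96 h and with FGF4. Mest shares 912 exon bases with Copg2 on the other strand.

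The 250 bases before a RefSeq start site (GRCm38.p6; the first listed where there are 2) are shown for the 3 members with over 2-fold range, Dlk1, Meg3 and Peg3, and for Grb10, the member with the narrowest range. Capitals mark matches, on either strand, to 4 motifs, searched in these 250 bases and not after the start. The motifs are the TATA box TATAAA, the GC box GGGCGG, the ETS site CCGGAAG and the YY1 site GCCATNTT.
Dlk1, chr12:109452573-109452822, plus strand: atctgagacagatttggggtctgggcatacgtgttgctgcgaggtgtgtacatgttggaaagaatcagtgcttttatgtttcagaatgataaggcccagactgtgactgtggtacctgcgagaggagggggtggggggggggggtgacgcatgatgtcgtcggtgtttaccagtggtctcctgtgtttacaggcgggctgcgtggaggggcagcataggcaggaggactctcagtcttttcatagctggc
Meg3, chr12:109540746-109540995, plus strand: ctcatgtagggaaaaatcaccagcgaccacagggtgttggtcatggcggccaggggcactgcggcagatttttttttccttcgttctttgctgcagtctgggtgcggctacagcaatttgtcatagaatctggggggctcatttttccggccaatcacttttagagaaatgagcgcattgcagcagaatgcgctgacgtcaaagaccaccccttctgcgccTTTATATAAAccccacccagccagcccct
Peg3, chr7:6730420-6730669, minus strand: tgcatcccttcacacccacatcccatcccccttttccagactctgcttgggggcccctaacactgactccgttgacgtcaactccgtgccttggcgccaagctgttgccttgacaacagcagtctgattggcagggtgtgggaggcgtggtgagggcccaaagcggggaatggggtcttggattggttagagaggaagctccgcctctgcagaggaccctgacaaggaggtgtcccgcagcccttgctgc
Grb10, chr11:12037421-12037670, minus strand: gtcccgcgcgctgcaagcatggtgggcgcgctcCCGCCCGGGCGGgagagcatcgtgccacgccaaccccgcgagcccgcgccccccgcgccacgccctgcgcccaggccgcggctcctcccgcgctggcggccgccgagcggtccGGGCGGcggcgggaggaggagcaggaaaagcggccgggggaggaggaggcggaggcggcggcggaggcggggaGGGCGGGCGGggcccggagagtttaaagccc
Meg3 has 2 overlapping TATA box matches, 1 on each strand, just before its start, and Grb10 has 5 GC box matches, some of which overlap or adjoin. The second listed start of Meg3 and that of Grb10 had no match to any of the 4 motifs, with 0 and 8 CpG dinucleotides. No match to the 4 motifs was found for Dlk1 or Peg3, which have 1 listed start each. In the same 250 bases of all 32851 promoters of the table, 12.4% held a TATA box match, 32.7% a GC box, 6.91% an ETS site and 3.91% a YY1 site. In the sequences shown, GC content was 54.8% for Dlk1, 52.4% for Meg3, 60.4% for Peg3 and 81.2% for Grb10, with 8, 10, 8 and 40 CpG dinucleotides, against medians of 52.4% and 6 over all promoters. Start sites were found in the table for 8 of 10 members. These are matches of letters and no record of factor binding.

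After 96 h of culture without growth factors, Dlk1 rose and Peg3, Meg3, Mest and Igf2 were also higher than at 0 h, while the signalling inhibitor Grb10 and the kinase inhibitor Cdkn1c were not. A gene was called different where the log2 ratio after adding 0.5 CPM was at least 2-fold and the 95% counting interval of the plain ratio excluded 1. Dlk1 rose 2.32-fold (counting interval 2.28 to 2.37), the only member called, against 3.78% of all genes called higher and 2.28% called lower. At a threshold of 1.5-fold, 4 members were higher, against 7.53% of all genes (and none lower, against 5.58%): Dlk1, Peg3 (1.58-fold), Meg3 (1.55-fold) and Mest (1.5-fold). Igf2 was at 1.35-fold, H19 at 1.11-fold, Igf2r at 1.09-fold and Plagl1 at 1.07-fold. Grb10 was 1.01-fold lower, within counting error of no difference, and Cdkn1c 1.12-fold lower. The median log2 ratio of the 10 members was 0.30, against -0.0025 over all 13755 genes. The counts of members at 1.5-fold were above the background share, and the sums of endothelial, red blood cell, lateral plate and feeder fibroblast markers were higher in the same library. Within the lists, 10 of 13 genes of the feeder list and 9 of 11 lateral plate genes had a ratio above 1, against 49.6% of all genes. In the feeder list Fn1 was lower, at 319 against 549 CPM. So were Fbln2, at 15.4 against 25.7 CPM, and Thy1, at 0.441 against 0.692 CPM, both named after their values were seen.

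With BMP4 for 5 h the same members lay below the 96 h library, at levels near those of 0 h. The library as a whole was also nearer to 0 h: over all kept genes, Pearson's r of log2 counts was 0.992 with 0 h and 0.965 with 96 h. With 1 library per condition, values here and elsewhere are differences between libraries and not a course within 1 culture. Dlk1 was 2.64-fold lower than at 96 h (2.58 to 2.69), the only member called, against 3.18% of genes called lower and 2.19% called higher. At 1.5-fold, 3 members were lower, against 6.47% of all genes (and none higher, against 5.58%): Dlk1, Peg3 (1.65-fold) and Mest (1.51-fold). Meg3 was 1.47-fold lower, Igf2 1.41-fold, H19 1.19-fold and Igf2r 1.16-fold. Cdkn1c was 1.04-fold lower and Plagl1 1.03-fold lower, and Grb10 was 1.02-fold higher. Set directly against 0 h, no member was called, and log2 ratios ran from -0.22 for Cdkn1c to 0.07 for Meg3, with 0.334% of all genes called higher and 0.0872% lower. At 1.5-fold no member passed there either, against 0.785% of genes higher and 0.204% lower. This comparison and that of 96 h with 0 h share libraries, so their values for a member are not independent.

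The library with BMP4 and FGF8 for 5 h was set against 96 h and against BMP4 alone, to see what FGF8, a ligand of FGF receptors in the tailbud, adds. Against 96 h, Dlk1 was 2.24-fold lower (2.20 to 2.28), the only member called, against 3.11% of all genes called lower and 2.38% higher. At 1.5-fold Peg3 joined it, at 1.85-fold lower, so that 2 members were lower against 6.18% of all genes, and none was higher against 5.91%. Against BMP4 alone at 5 h, no member was called at 2-fold or 1.5-fold, with 0.16% of all genes called higher and 0.0364% lower at 2-fold, and 0.32% and 0.167% at 1.5-fold. The largest differences were in Dlk1, at 70.5 against 59.9 CPM and 1.18-fold higher (1.15 to 1.21), Peg3, at 209 against 235 CPM and 1.12-fold lower (1.11 to 1.14), and Cdkn1c, at 69.6 against 62.1 CPM and 1.12-fold higher (1.09 to 1.15). The other 7 members had log2 ratios from -0.06 (Grb10) to 0.07 (H19), and the median of the 10 was 0.014, against 0.0095 over all genes. Without replicates these differences cannot be set against the spread between cultures.

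**Figure D3:**
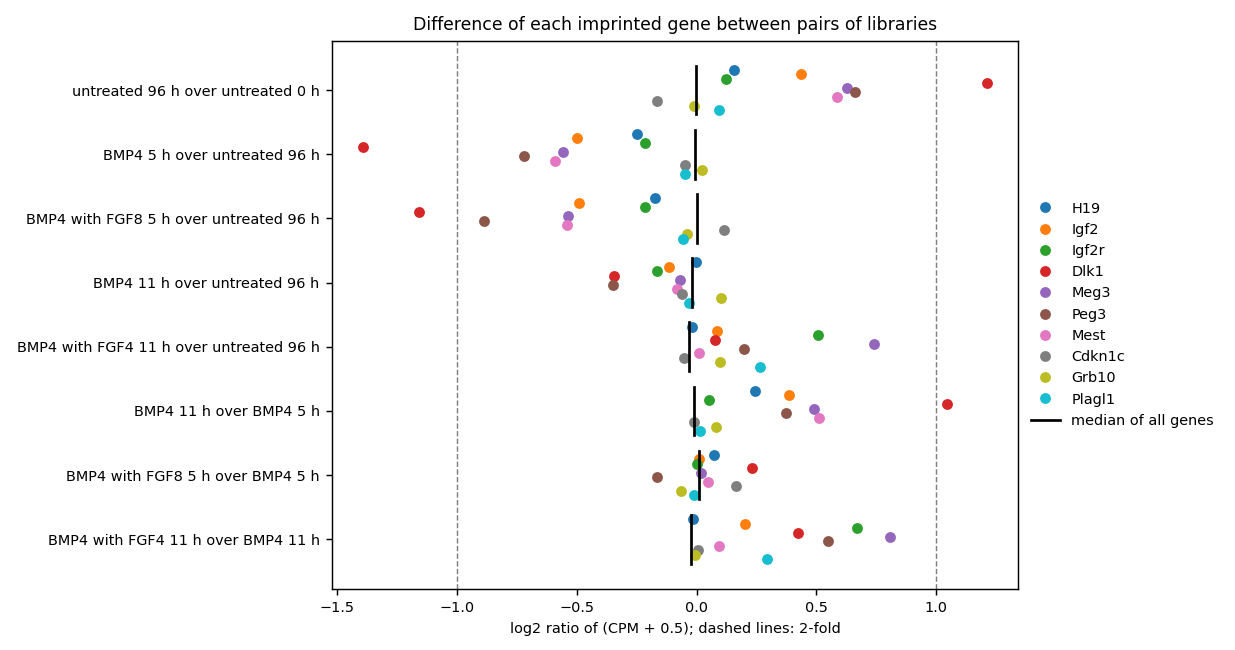
Log2 ratio of each imprinted gene (points, after adding 0.5 CPM) in 8 comparisons of 2 libraries (rows), with the median of all 13755 genes as a black bar and 2-fold as dashed lines. Dlk1 (red) is the only member past a dashed line: to the right at 96 h over 0 h and at BMP4 11 h over 5 h, and to the left in both 5 h libraries over 96 h.

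With BMP4 for 11 h no member differed by 2-fold or by 1.5-fold from the 96 h library, where 2.25% of all genes were called higher and 0.305% lower at 2-fold, and 5.63% and 1.96% at 1.5-fold. Log2 ratios ran from -0.35 for Peg3 and Dlk1 to 0.10 for Grb10. Dlk1 was 1.27-fold lower (1.25 to 1.29) and Peg3 1.27-fold lower (1.26 to 1.29), and H19 was within counting error of its 96 h level. The 11 h and 5 h libraries with BMP4 differed more: Dlk1 was 2.07-fold higher at 11 h, at 124 against 59.9 CPM (2.02 to 2.12), the only member called, against 2.45% of all genes called higher and 0.371% lower. With CPM of library totals in place of TMM its log2 ratio was 0.94 and it was not called. Mest was 1.42-fold higher at 11 h, Meg3 1.40-fold, Igf2 1.31-fold, Peg3 1.29-fold and H19 1.18-fold, and no member besides Dlk1 reached 1.5-fold, against 5.85% of all genes higher and 1.66% lower. Grb10 (1.06-fold), Igf2r (1.04-fold) and Plagl1 (1.01-fold) were near equal, and their log2 ratios turned to -0.02, -0.05 and -0.09 with library totals. Both libraries of 11 h were above both of 5 h in 9 of 10 members, all but Cdkn1c, against 26.7% of all genes, and below them in Cdkn1c, at 61.6 and 61.9 against 62.1 and 69.6 CPM, against 34.3%. With library totals 6 of 10 members were above, against 19.8% of all genes. The members' share was above that of all genes, and the sums of red blood cell, endothelial, lateral plate and feeder fibroblast markers divided these libraries in the same way. In the feeder list 10 of 13 genes had a ratio of 11 h over 5 h above 1, against 47.6% of all genes. Fn1, its most abundant gene, was lower, at 452 against 518 CPM. Fbln2 (27.9 against 39.6 CPM) and Thy1 (3.26 against 3.54 CPM) were lower too.

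Adding FGF4, another ligand of FGF receptors, to BMP4 for 11 h went with higher Meg3, Igf2r, Peg3 and Dlk1, and H19, Grb10 and Cdkn1c were level. No member was called at 2-fold, against 1.21% of all genes higher and 0.611% lower. At 1.5-fold 2 members were higher, against 3.5% of all genes (and none lower, against 2.55%): Meg3, at 298 against 170 CPM and 1.75-fold (1.73 to 1.78), and Igf2r, at 258 against 162 CPM and 1.59-fold (1.57 to 1.62). Peg3 was 1.46-fold higher, Dlk1 1.34-fold, Plagl1 1.23-fold, Igf2 1.15-fold and Mest 1.07-fold. H19 and Grb10 were 1.01-fold and 1.00-fold lower, and with library totals their log2 ratios turned to 0.13 and 0.14. That scaling moved the median of all genes by 0.135 in this comparison, so these 2 genes stayed near the median of all genes under both. The median of the 10 members was 0.25, against -0.025 over all genes. Set against 96 h, the FGF4 library had no member called, with 1.23% of all genes called higher and 0.138% lower, and Meg3 alone reached 1.5-fold, at 1.67-fold (1.65 to 1.69), against 4.84% of all genes higher and 0.64% lower. Igf2r was at 1.42-fold, Plagl1 at 1.20-fold and Peg3 at 1.15-fold. Dlk1 was 1.05-fold higher and Mest 1.01-fold higher, so that Meg3 and Igf2r were high in the FGF4 library against both references while Dlk1 and Mest were near their 96 h level. Against BMP4 alone at 11 h, 8 of 13 feeder fibroblast markers and 8 of 13 endothelial markers were called higher (sums of 2011 against 1017 and 200 against 76.2 CPM), as were 2 of 11 lateral plate markers. Of 15 tailbud and presomitic markers 13 were called lower (87.9 against 290 CPM). The part of these markers in the members' differences was not tested.

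**Figure D4:**
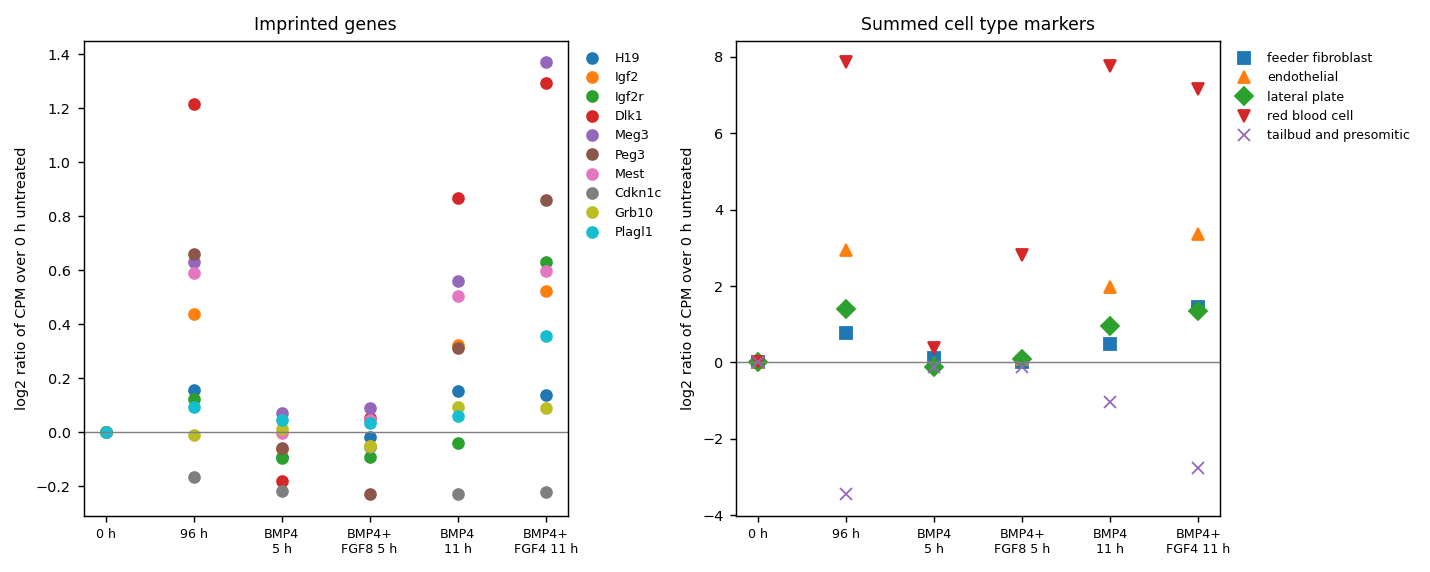
Log2 ratio of CPM over the 0 h library for the 10 imprinted genes (left) and for summed cell type markers (right) in the 6 libraries, with different vertical scales. Most members and the red blood cell, endothelial, lateral plate and feeder fibroblast sums are higher at 96 h and in both 11 h libraries than in the 5 h libraries, while the tailbud and presomitic sum is lower there.

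Neighbours of the members in their clusters were looked at next, chosen by position after earlier values had been seen. In the Dlk1-Dio3 cluster the noncoding RNAs downstream of Meg3 had 96 h over 0 h log2 ratios close to that of Meg3 (0.63): 0.72 for Rian, at 140 and 231 CPM, and 0.83 for Mirg, at 6.79 and 12.5 CPM. Rtl1, a protein-coding gene of the paternal copy, was at 1.13 and 2.74 CPM. With FGF4 the ratio of Rian to Meg3 counts was 0.877, the lowest of the 6 libraries, which otherwise ran from 1.07 with BMP4 at 5 h to 1.30 at 96 h. Around Peg3, the other genes of the cluster were higher at 96 h too, with log2 ratios of 0.70 for Peg3os, 0.87 for Usp29 and 1.11 for Zim1, against 0.66 for Peg3. Copg2, which overlaps Mest, was at 180 and 261 CPM, a log2 ratio of 0.54 against 0.59 for Mest. Their exons share 912 bases on opposite strands, so the 2 counts may hold the same reads, which was not tested. In the Kcnq1 domain, which holds Cdkn1c, the members of the cluster went different ways. Kcnq1ot1, the noncoding RNA that silences the paternal copy of the domain, was at 8.25 CPM at 0 h and 4.08 CPM at 96 h, and Kcnq1, whose exons and introns it overlaps on the other strand, at 8.78 and 4.74 CPM. The Kcnq1 count was only a little above that of Kcnq1ot1 in every library (1829 against 1719 at 0 h, 1226 against 1054 at 96 h). Most of the Kcnq1 count may thus be reads of Kcnq1ot1, which was not tested. Phlda2, a gene of the same domain that limits placental growth, was at 2.55 CPM at 0 h and 7.24 CPM at 96 h, 1.34 on the log2 scale, while Cdkn1c was at -0.17. Around Grb10, which was level, Ddc was at 3.64 and 8.12 CPM and Cobl at 1.90 and 3.99 CPM.

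**Figure D5:**
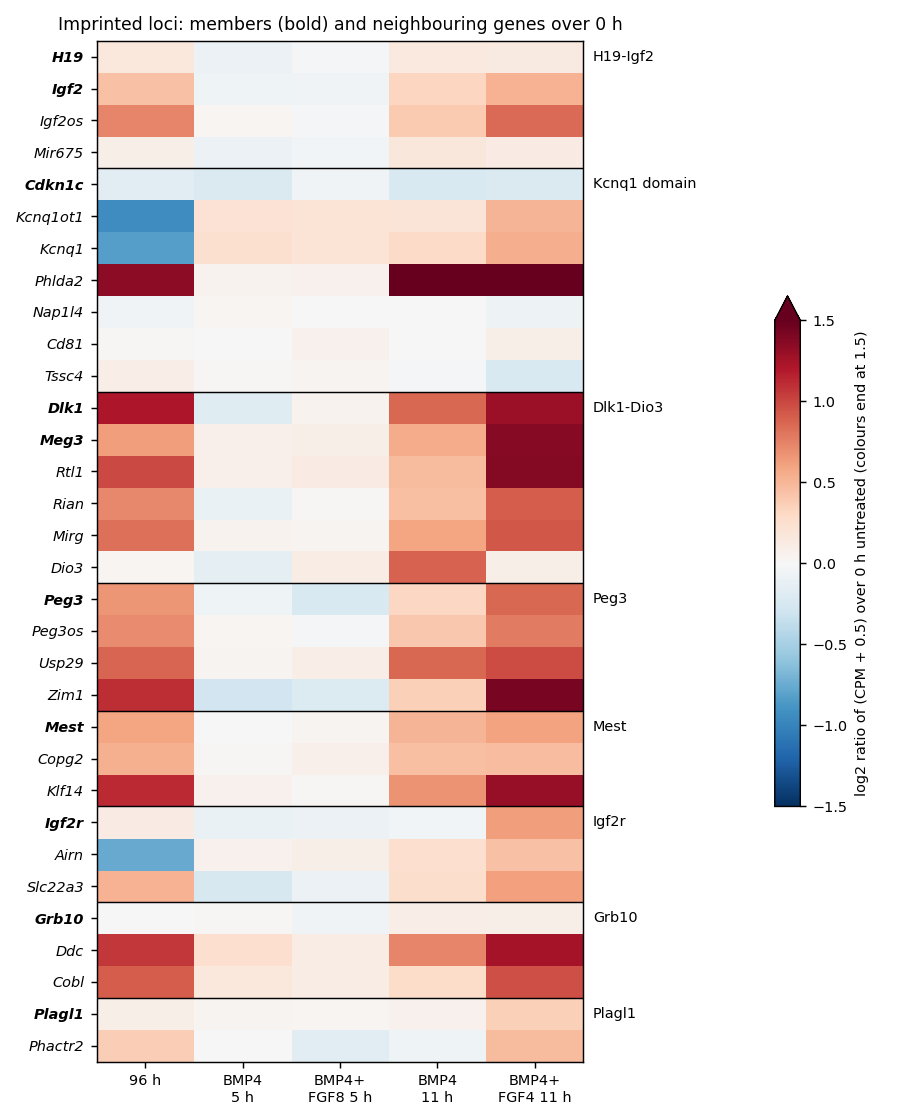
Log2 ratio over the 0 h library (colour, after adding 0.5 CPM, ending at 1.5) of the members (bold) and neighbouring genes of 8 imprinted loci (rows, grouped by locus) in the other 5 libraries (columns). The Dlk1-Dio3, Peg3 and Mest loci are red at 96 h and in both 11 h libraries for every gene but Dio3, while Airn, Kcnq1ot1 and Kcnq1 are blue at 96 h alone.

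Of 55 further imprinted genes listed, 48 were analysed, among them neighbours from the members' own clusters, such as Rian, Zim1 and Copg2. Their median log2 ratio was smaller than that of the members at 96 h over 0 h (0.21 against 0.30). With BMP4 at 11 h over 96 h it was further below 0, at -0.12 against -0.075. At 96 h over 0 h 7 of 48 were called higher and none lower, against 3.78% and 2.28% of all genes, at a median log2 ratio of 0.21 against -0.0025. At 1.5-fold 15 were higher and 6 lower, against 7.53% and 5.58%. Those 6 were Nap1l5 (-0.95), Kcnq1ot1 (-0.94), Kcnq1 (-0.82), Zrsr1 (-0.77), Airn (-0.76) and Nespas (-0.68), of which Nap1l5 and Nespas are named after their values were seen. Kcnq1ot1 and Kcnq1 may hold the same reads, so they may not be separate cases in this count or in those below. Those named by the rule were Asb4, a component of ubiquitin ligases, which rose from 12.7 to 66.2 CPM, Phlda2, Zim1, which rose from 9.63 to 21.3 CPM, and Ddc, which encodes aromatic amino acid decarboxylase. With BMP4 at 5 h over 96 h 2 were higher and 5 lower, against 2.19% and 3.18% of all genes (median -0.19 against -0.0054), and Asb4 was at 13.1 CPM. With BMP4 at 11 h over 96 h 3 were higher and none lower, against 2.25% and 0.305% of all genes: Kcnq1ot1 (4.08 to 9.52 CPM), Kcnq1 (4.74 to 10.8 CPM) and Airn (25.3 to 51.3 CPM). With FGF4 over BMP4 alone at 11 h 2 were higher and none lower, against 1.21% and 0.611% of all genes. These were Zim1, at 26.6 against 12.5 CPM, and Dcn, at 11.7 against 4.42 CPM. Dcn, named after its values were seen since its mean was under 5 CPM, also had the list's largest ratio at 96 h over 0 h (0.163 to 7.01 CPM). With FGF8 over BMP4 alone at 5 h none was called, and the widest difference was in Zrsr1, at 7.80 against 4.18 CPM.

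Of 20 genes for other IGF ligands, receptors, binding proteins and their partners, 18 were analysed. At 96 h over 0 h 2 were called higher and 1 lower, against 3.78% and 2.28% of all genes, at a median log2 ratio of 0.020. The 2 higher, named after their values were seen since their mean was under 5 CPM, were the growth factor gene Igf1, which rose from 1.01 to 3.99 CPM, and Pappa2, which rose from 0.226 to 1.47 CPM. Igf1r, the receptor through which IGF1 and IGF2 signal, was at 106 CPM at 0 h, 56.6 at 96 h, 112 with BMP4 at 5 h and 90.3 after 11 h of it, short of 2-fold in each comparison. Stc2, an inhibitor of the protease that frees IGFs from their binding proteins, fell from 9.53 to 4.44 CPM at 96 h, and Pappa, that protease, was at 13.3 and 8.38 CPM. Igfbp2, an IGF binding protein, was at 51.6 and 33.2 CPM, and Igfbp5, another, which fell outside the rule for named genes, at 147 and 227 CPM. Of 18 factors that write, keep or remove DNA methylation or act at imprinted regions, among them DNA methyltransferases and the TET enzymes that oxidise methylated cytosine, 15 were analysed. None was called in any of the 9 comparisons, in which 0.0364% to 3.78% of all genes were called in either direction. For 15 genes, no call is near that share. At 1.5-fold Tet2 alone was higher with FGF4 over BMP4 at 11 h (13.1 against 7.21 CPM), against 3.5% of all genes. Dnmt3b was at 41.2 CPM at 0 h and 31.4 CPM at 96 h, Dnmt3a at 104 and 85.7 CPM, and Tet2 at 5.99 and 9.08 CPM. Of 7 kinase inhibitor genes besides Cdkn1c, 6 were analysed. Cdkn1a, which encodes p21, was at 7.15 CPM at 0 h, 4.98 at 96 h, 11.7 with BMP4 at 5 h and 26.0 after 11 h of it. It was thus above its 96 h level in both BMP4 libraries, while Cdkn1c was between 61.6 and 64.3 CPM in all 3.

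The genes whose pattern was most like those of the 3 widest-ranging members were taken from 9610 genes with a mean of at least 5 CPM, by Pearson's r of log2 levels over the 6 libraries, given as a description. For Dlk1 these were Mfsd11 (r = 0.998), Cbx6 (0.997) and the collagen gene Col14a1 (0.997), and 353 genes exceeded 0.95. Mfsd11 ran only from 6.55 to 8.42 CPM over the libraries and Col14a1 from 2.80 to 12.4 CPM. For Meg3 they were Ttyh3 (0.997), the axon guidance receptor gene Robo1 (0.996) and Elmo1 (0.995), with 195 genes above 0.95. For Peg3 they were the frizzled receptor gene Fzd4 (1.00), Rbms1 (0.996) and Polr3gl (0.995), with 280 genes above 0.95. All these genes share the same 6 libraries and the placement step.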

How the data were processed

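Total RNA of 6 mouse libraries was deposited by the authors as raw read counts per gene, not normalized. Tools listed in the submitters' processing notes, with no role, are STAR 2.4.0e, DESeq, HTSeq and cutadapt, and the build is mm10. How overlapping genes, introns and strand were counted is not given in the sources used here. Counts of overlapping genes, such as Kcnq1 and Kcnq1ot1, may therefore hold the same reads. Between 65.4% and 70.9% of counts from 1 to 20 were even, and counting both mates would make the intervals too narrow. Intervals cover counting error only.

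The 4 growth factor columns hold 19415 to 19826 values for 19342 names. Names were sorted without regard to case, and each column was aligned in order to the 2 untreated columns, charging a value only for lying outside their range; a gene was kept where the next best row was worse by 5 units or more in all 4 columns (16707 genes, 94.8% to 95.0% of counts). On simulated columns 88.2% of 13479 expressed genes were kept and 99.8% of those were right. Kept counts were scaled by TMM (edgeR 4.0.16, R 4.3.3), and genes with at least 1 CPM in 1 library were analysed. The log2 ratio was taken with 0.5 CPM added, which understates changes of weak genes; calls needed 2-fold and a Clopper-Pearson 95% interval excluding 1. Exon lengths and overlaps are from GENCODE, sequences from RefSeq (GRCm38.p6).

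The members and lists were chosen with earlier results of these data known. Named genes were all members, the 3 genes most alike in pattern to each member of at least 2-fold range, and up to 4 per list with the largest log2 ratio and a mean of at least 5 CPM. Alternatives were DESeq2 size factors (DESeq2 1.42.0), library totals, 2 CPM added, filters of 5 CPM or none, placement on 1 untreated column or with a margin of 10, and a 1.5-fold threshold.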

Additional observations from a re-analysis of the deposited data

How the results depend on the processing

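No paired analysis was possible because each condition had 1 library, and for the same reason no library could be left out. At a threshold of 1.5-fold the count of members went from 1 to 4 higher at 96 h over 0 h, from 1 to 3 lower with BMP4 at 5 h over 96 h, from 1 to 2 lower with FGF8 over 96 h, from 0 to 1 higher with FGF4 over 96 h and from 0 to 2 higher with FGF4 over BMP4 at 11 h, since a lower threshold takes in more genes. With CPM of library totals the count of members higher with BMP4 at 11 h over 5 h went from 1 to 0. The other counts of members called kept their value over the settings run. Over 90 ratios of members, library totals moved the log2 value by at most 0.143 and turned 8 signs, among them Cdkn1c and H19 with FGF4 over 96 h (to 0.0058 and 0.04) and Mest with BMP4 at 5 h over 0 h (to 0.012), DESeq2 size factors by at most 0.013 with 2 signs turned (Igf2r with FGF8 over BMP4, to -0.0008, and Grb10 with FGF4 over BMP4, to 0.0072), and placement on the 96 h column alone turned H19 with BMP4 at 11 h over 96 h, to 0.0002. The ratios turned by library totals also include Igf2r (-0.05), Grb10 (-0.02) and Plagl1 (-0.09) with BMP4 at 11 h over 5 h, and H19 (0.13) and Grb10 (0.14) with FGF4 over BMP4. The background counts of all genes depended more on the settings. Genes higher at 96 h over 0 h numbered 520, with a range over the scaling, filter and placement settings of 294 to 542, and genes lower with BMP4 at 5 h over 96 h 437, with a range of 253 to 459. Genes higher with BMP4 at 11 h over 5 h numbered 337 (132 to 364), and with FGF4 over BMP4 167 (60 to 213), each lowest with 2 CPM added.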

Other observations

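The untreated columns, which need no placement, list hairpins of the Dlk1-Dio3 cluster with very unlike counts. Mir544 was at 1735842 counts at 0 h and 2124490 at 96 h, or 0.792% and 0.779% of the library. Mir1906-1, which lies within a Meg3 exon, was at 555347 and 740930 counts, against 23996 and 46057 counts for Meg3 itself. Other hairpins of the cluster were near the floor: Mir127 at 6 and 20 counts and Mir433 at 8 and 34 counts. Mir770, in a Meg3 exon as well, was at 580 counts at 0 h and 25 counts at 96 h, the opposite direction to its host gene. Mir335, in an intron of Mest, was at 2236 and 4313 counts. How these counts arose was not tested, and total RNA libraries do not measure mature microRNAs.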
